A study of Mus musculus with 12 samples.

Results

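The 6 caveola coat genes Cav1, Cav2, Cavin1, Cavin2, Cavin3 and Ehd2 were followed in mouse bone marrow derived macrophages (BMDMs), which are macrophages grown in culture from marrow precursors. They were found by symbol in the GENCODE M21 annotation and are 6 of the 23438 genes of the deposited table, and all 6 were present. The set was selected on earlier results of these libraries, namely TPM values in KO against WT and in WT replicates 2, 3 and 4 against the other WT, so the members' values in those contrasts are a description. The series holds 5 libraries from Baf60a knockout (KO) cells and 7 from wild-type (WT) cells, all on day 7 of differentiation, from C57 mice described as atherosclerotic. Baf60a is the protein made from Smarcd1, a subunit of the SWI/SNF chromatin remodelling complex. The sources used here do not name the cells or the promoter behind the deletion, nor the age or diet of the mice. No label says that libraries came from separate mice, so p-values measure the spread between libraries, which may be technical.

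Caveolae are small flask-shaped pits of the plasma membrane, abundant in fibroblasts, smooth muscle, endothelium and adipocytes. Caveolin proteins sit in the membrane and assemble into oligomers, and cavin proteins bind them from the cytosol to form the coat. Caveolae are known for buffering membrane tension, for lipid uptake and for holding signalling receptors, and Cav1 is also made by macrophages.

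Smarcd1 was lower in every KO library, at 5.99 to 7.58 TPM, against 11.6 to 15.6 TPM in WT libraries. TPM (transcripts scaled for gene length and for the total of the library) is the unit of all levels below. The 12 macrophage markers were detected in all libraries, but their levels differed in WT replicates 2, 3 and 4. The surface marker Adgre1 overlapped between the sets, at 448 to 540 TPM in KO libraries, 371 to 586 TPM in WT replicates 2, 3 and 4 and 507 to 653 TPM in WT replicates 1, 5, 6 and 7. Of the 12 markers, 6 (Csf1r, Fcgr1, C1qa, C1qb, C1qc and Cd14) were lower in WT replicates 2, 3 and 4 than in any of the other 9 libraries, where 25.5% of all genes tested were, and 1, the scavenger receptor Marco, was higher, where 23.6% were. Csf1r, the receptor for the macrophage growth factor, stood at 541 to 700 TPM in KO libraries, 170 to 275 TPM in WT replicates 2, 3 and 4 and 598 to 910 TPM in WT replicates 1, 5, 6 and 7. Marco stood at 0.13 to 2.36 TPM in KO libraries, 1186 to 2043 TPM in WT replicates 2, 3 and 4 and 0.40 to 2.64 TPM in WT replicates 1, 5, 6 and 7. WT replicates 2, 3 and 4 stood apart in other markers too. The 18 fibroblast markers summed to 190 to 542 TPM in KO libraries, 2931 to 7033 TPM in WT replicates 2, 3 and 4 and 109 to 408 TPM in the other WT libraries. The 10 smooth muscle markers summed to 176 to 581 TPM in KO libraries, 4162 to 11151 TPM in WT replicates 2, 3 and 4 and 102 to 399 TPM in the other WT libraries. The matrix genes Sparc and Col1a2 reached 136 and 81.9 TPM at most in KO libraries, 2082 and 1014 TPM in WT replicates 2, 3 and 4 and 105 and 62.4 TPM in the other WT libraries. The contractile genes Acta2 and Tagln reached 215 and 199 TPM in KO libraries, 4236 and 3563 TPM in WT replicates 2, 3 and 4 and 148 and 137 TPM in the other WT libraries. Of these markers, 13 of 14 tested fibroblast genes and 8 of 8 tested smooth muscle genes were higher in WT replicates 2, 3 and 4 than in any other library, where 23.6% of all genes tested were. Results are therefore given for all 12 libraries and for the 9 libraries without WT replicates 2, 3 and 4. In bulk RNA, fewer cells of a type and less RNA per cell cannot be told apart.

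Cav1 and Cav2 lie next to each other on the plus strand of chromosome 6 in GRCm38 (mm10), Cav1 at 17306335 to 17341452 and Cav2 at 17281185 to 17289115. The Cav2 gene ends 17219 bases before the Cav1 start. Cav1 (ENSMUSG00000007655) makes the main structural caveolin outside striated muscle, and Cav2 (ENSMUSG00000000058) makes its partner in mixed oligomers. The 250 bases before the annotated gene start of each are shown from RefSeq on GRCm38.p6, because these neighbours differed in how they varied across libraries. The window of Cavin2 is added as that of the coat gene with the largest excess in WT replicates 2, 3 and 4. All are on the plus strand, at chr6:17306085-17306334 for Cav1, chr6:17280935-17281184 for Cav2 and chr1:51288876-51289125 for Cavin2, and capitals mark motif matches.
Cav1: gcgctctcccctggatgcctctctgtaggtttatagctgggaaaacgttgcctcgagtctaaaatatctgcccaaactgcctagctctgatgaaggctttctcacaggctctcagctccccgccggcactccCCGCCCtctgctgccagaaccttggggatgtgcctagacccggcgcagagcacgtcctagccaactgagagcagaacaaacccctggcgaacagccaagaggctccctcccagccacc
Cav2: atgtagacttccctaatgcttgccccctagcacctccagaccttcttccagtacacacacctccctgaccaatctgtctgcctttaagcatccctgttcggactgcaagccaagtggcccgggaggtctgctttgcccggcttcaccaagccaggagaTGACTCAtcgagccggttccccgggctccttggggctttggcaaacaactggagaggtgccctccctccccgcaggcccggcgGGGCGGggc
Cavin2: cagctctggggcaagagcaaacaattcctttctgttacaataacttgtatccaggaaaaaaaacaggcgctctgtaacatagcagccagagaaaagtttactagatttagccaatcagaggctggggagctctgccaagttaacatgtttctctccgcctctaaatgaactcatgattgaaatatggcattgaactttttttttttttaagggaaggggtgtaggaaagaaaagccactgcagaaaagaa

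Motifs were searched on both strands as an Sp1 box (GGGCGG), an AP-1 site (TGANTCA), a PU.1 core (GAGGAA) and the CArG box, the serum response factor site, which is given by name. The Cav1 window shown held an Sp1 box on the minus strand, 118 to 113 bases before the start. RefSeq also lists a Cav1 start 1305 bases from the gene start. The window of that start, not shown, held a PU.1 core 106 to 101 bases before it. The Cav2 window held an Sp1 box 9 to 4 bases before its start and an AP-1 site 92 to 86 bases before it. The Cavin2 window held none of the 4 motifs. Of the windows not shown, each of Cavin1 held 1 Sp1 box and 2 PU.1 cores, and that of Ehd2 held 1 Sp1 box. The Cavin1 starts lie 270 and 272 bases from the gene start, so these windows overlap and their matches are the same sites. The Ehd2 start lies 32 bases from its gene start. Of the 32841 RefSeq windows of this length, 32.7% held the Sp1 box, 6.75% the AP-1 site, 23.3% the PU.1 core and 1.47% the CArG box. The table matched 5 of the 6 members, all but Cavin3. A match is a description of letters in the window, and no binding was measured.

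Cav1 was lower in the KO libraries than in every WT library. Its levels were 12.8, 11.5, 13.2, 19.1 and 18.8 TPM in KO replicates 1 to 5, against 22.6, 19.65 and 42.0 TPM in WT replicates 2, 3 and 4 and 27.99, 23.0, 44.3 and 45.5 TPM in WT replicates 1, 5, 6 and 7. The groups did not overlap, as for 0.637% of all genes tested with KO below all WT and 2.08% with KO below WT replicates 1, 5, 6 and 7. The gap was narrow, with the highest KO library at 19.14 TPM and the lowest WT library at 19.65 TPM. Cav1 averaged 15.1 ± 3.62 TPM in KO libraries (SD, n = 5) and 32.1 ± 11.3 TPM in all WT libraries (SD, n = 7). WT replicates 1, 5, 6 and 7 alone averaged 35.2 ± 11.4 TPM (SD, n = 4). The WT libraries were themselves spread, with WT replicates 4, 6 and 7 above 40 TPM and the other 4 below 30 TPM. The log2 fold change was -0.998 ± 0.238 (SE) with 12 libraries and -1.14 ± 0.228 with 9 libraries, on the log2(TPM + 1) scale.

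Cav2 did not follow Cav1. It stood at 45.2, 49.8, 49.0, 47.6 and 45.9 TPM in KO replicates 1 to 5, against 25.2, 26.9 and 24.1 TPM in WT replicates 2, 3 and 4 and 46.4, 41.6, 45.8 and 44.6 TPM in WT replicates 1, 5, 6 and 7. The KO libraries overlapped WT replicates 1, 5, 6 and 7, and both stood above WT replicates 2, 3 and 4. No member stood above all WT libraries or above WT replicates 1, 5, 6 and 7 in every KO library, where 2.92% and 7.09% of all genes tested did. Cav2 averaged 47.5 ± 1.96 TPM in KO libraries (SD, n = 5) and 44.6 ± 2.13 TPM in WT replicates 1, 5, 6 and 7 (SD, n = 4). Its log2 fold change was 0.43 ± 0.182 with 12 libraries and 0.09 ± 0.0449 with 9 libraries. The larger value with 12 libraries came with the low levels of WT replicates 2, 3 and 4.

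**Figure D1:**
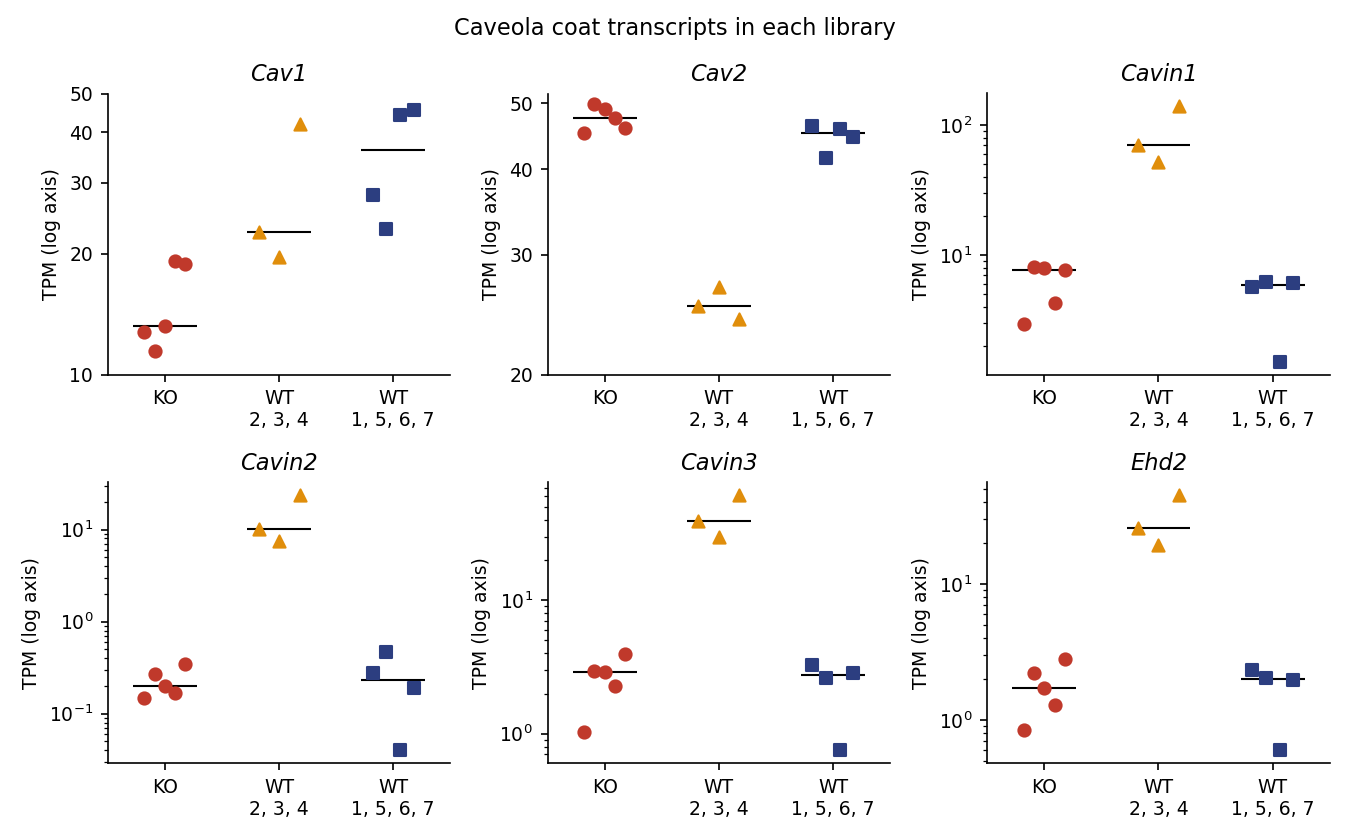
Level of each caveola coat gene in TPM on a log axis, a point per library, for KO, WT replicates 2, 3 and 4, and WT replicates 1, 5, 6 and 7, with bars at the median of each set. Cav1 is lowest in KO, Cav2 is lowest in WT replicates 2, 3 and 4, and Cavin1, Cavin2, Cavin3 and Ehd2 are far higher in WT replicates 2, 3 and 4.

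The ratio of Cav1 to Cav2 separated the genotypes. It was 0.282, 0.230, 0.270, 0.402 and 0.410 in KO replicates 1 to 5, against 0.896, 0.730 and 1.74 in WT replicates 2, 3 and 4 and 0.604, 0.553, 0.967 and 1.02 in WT replicates 1, 5, 6 and 7. Every KO library was below every WT library, as for Cav1 alone. The ratio holds the same Cav1 values, so its separation is a description and not separate support. No share over other gene pairs was computed. Cav1 exceeded Cav2 in WT replicates 4 and 7 and in no other library. Across the 9 libraries no correlation between the neighbours was detected, with Pearson r = -0.48 (exact permutation p = 0.188, adjusted p = 0.264 over 7 relations, n = 9) and Spearman rho = -0.55 (exact permutation p = 0.133, adjusted p = 0.186). Without WT replicates 6 and 7, the libraries farthest from the median of Cav1, r was -0.56 (exact permutation p = 0.196, n = 7). On deviations from the genotype means, r was 0.13 (exact permutation p = 0.789, adjusted p = 0.920, n = 9). These p-values do not show that the genes are unrelated. No pooled correlation is given over 12 libraries, which fall into 2 clusters.

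**Figure D2:**
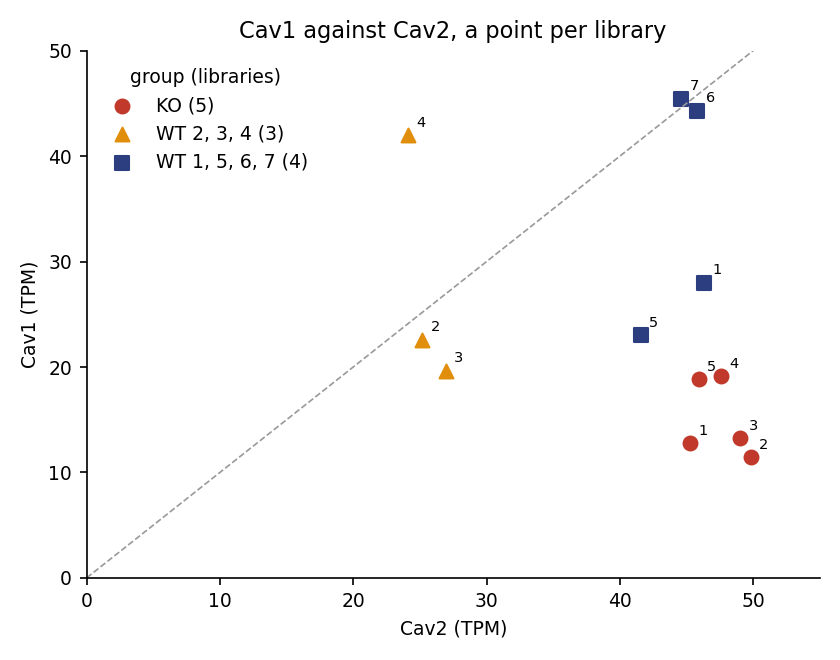
Cav1 against Cav2 in TPM, a point per library with its replicate number, and a dashed line where both are equal. KO libraries lie at high Cav2 and low Cav1, WT replicates 2, 3 and 4 lie at Cav2 of 24.1 to 26.9 TPM, and WT replicates 1, 5, 6 and 7 spread along Cav1 at nearly constant Cav2.

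Cavin1 (ENSMUSG00000004044, chromosome 11, 100956733 to 100970887, minus strand) makes the cavin needed for caveolae to form. It stood at 2.92, 8.14, 7.90, 4.23 and 7.63 TPM in KO replicates 1 to 5, against 69.8, 52.3 and 139.7 TPM in WT replicates 2, 3 and 4 and 5.63, 6.20, 1.5 and 6.11 TPM in WT replicates 1, 5, 6 and 7. The KO libraries overlapped WT replicates 1, 5, 6 and 7, and the lowest of WT replicates 2, 3 and 4 was 6.43 times the highest of the other 9 libraries.

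Cavin3 (ENSMUSG00000037060, chromosome 7, 105480083 to 105482300, minus strand) makes a cavin that binds protein kinase C delta. It stood at 1.03, 2.97, 2.89, 2.28 and 3.96 TPM in KO replicates 1 to 5, against 39.3, 29.7 and 61.8 TPM in WT replicates 2, 3 and 4 and 3.27, 2.62, 0.75 and 2.85 TPM in WT replicates 1, 5, 6 and 7. The order of libraries was much like that of Cavin1, with WT replicate 4 highest and WT replicate 6 lowest, and the lowest of WT replicates 2, 3 and 4 was 7.49 times the highest of the other 9.

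Ehd2 (ENSMUSG00000074364, chromosome 7, 15946958 to 15967567, minus strand) makes the ATPase at the neck of caveolae, which holds them at the cell surface. It stood at 0.84, 2.23, 1.73, 1.30 and 2.81 TPM in KO replicates 1 to 5, against 25.8, 19.3 and 45.3 TPM in WT replicates 2, 3 and 4 and 2.35, 2.04, 0.60 and 1.96 TPM in WT replicates 1, 5, 6 and 7. The KO libraries again overlapped WT replicates 1, 5, 6 and 7, and the excess of the lowest of WT replicates 2, 3 and 4 over the other 9 was 6.86 times.

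Cavin2 (ENSMUSG00000045954, chromosome 1, 51289126 to 51302960, plus strand) makes a membrane-bending cavin also known from platelets. It stood at 0.15, 0.27, 0.20, 0.17 and 0.35 TPM in KO replicates 1 to 5, against 10.2, 7.58 and 23.8 TPM in WT replicates 2, 3 and 4 and 0.28, 0.47, 0.04 and 0.19 TPM in WT replicates 1, 5, 6 and 7. It reached 1 TPM in 3 libraries, all of them among WT replicates 2, 3 and 4, and so did not enter the fits, which required 1 TPM or more in 5 or more libraries. The lowest of WT replicates 2, 3 and 4 was 16.1 times the highest of the other 9 libraries, the largest such excess among the 6 genes.

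In KO against WT with 12 libraries, the 3 tested genes of this group had negative log2 fold changes with wide errors, at -1.34 ± 0.933 for Cavin1, -1.48 ± 0.876 for Cavin3 and -1.46 ± 0.813 for Ehd2 (SE). With 9 libraries the same values were 0.33 ± 0.370, 0.12 ± 0.310 and 0.03 ± 0.263. The 12-library differences therefore moved with WT replicates 2, 3 and 4, and each 9-library value was smaller than its SE. None of them passed the threshold in either fit. Over the 5 tested members the median log2 fold change was -1.34 with 12 libraries and 0.09 with 9 libraries, beside 0.04 and 0.05 over all 11152 genes tested.

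**Figure D3:**
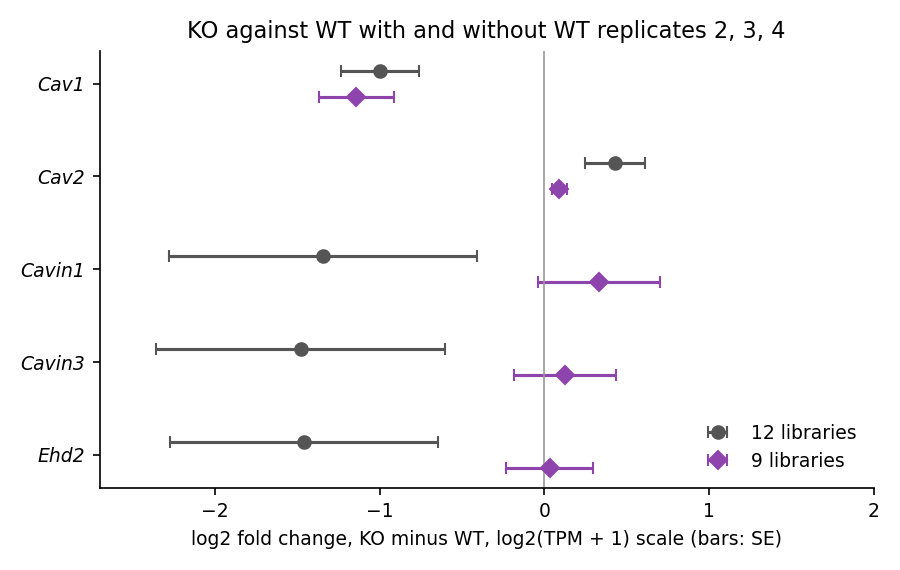
Log2 fold change of KO minus WT for the 5 tested members, with SE bars, from the fit of 12 libraries and of 9 libraries without WT replicates 2, 3 and 4. Cav1 stays near -1 in both fits, while Cavin1, Cavin3 and Ehd2 sit below 0 with 12 libraries and near 0 with 9 libraries.

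In the limma fit of 12 libraries, 0 of 5 tested members passed an adjusted p of 0.05, where 0.126% of all genes tested did (0.108% as higher and 0.0179% as lower in KO). In the fit of 9 libraries 1 of 5, Cav1, passed as lower in KO, where 2.33% of all genes passed in either direction (1.61% as higher and 0.717% as lower). Because the contrast was used in choosing the set, nothing is read from these counts. For Cav1 the log2 fold change stayed negative in all 16 alternatives of the 9-library fit, between -1.32 and -1.002, and the call held in 7 of them. It was lost without KO replicate 1, 2, 3 or 4, without WT replicate 1, 6 or 7, with no filter and with the submission block. With 12 libraries it was negative in all 22 alternatives, at -1.14 to -0.78, and passed in 2, with sample quality weights and without WT replicates 2, 3 and 4.

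Between WT replicates 2, 3 and 4 and the other WT libraries, the members split into groups. Among the tested members 3 stood above all 4 other WT libraries without overlap, where 29.9% of all genes tested did, and 1, Cav2, stood below, where 28.3% did. Set against all 9 other libraries the same genes stood above and below, where 23.6% and 25.5% of all genes did. Cav1 overlapped, and the untested Cavin2 stood above. WT replicates 2, 3 and 4 were set apart by values of these data, so no test was made. The order of levels was Cav2, Cav1, Cavin1, Cavin3, Ehd2, Cavin2 in 8 libraries, and WT replicate 7 differed only in having Cav1 above Cav2. In WT replicates 2, 3 and 4 Cavin1 and Cavin3 were the highest members and Cavin2 the lowest, while Cav1, Cav2 and Ehd2 changed places among the 3 libraries.

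Cavin1, Cavin3 and Ehd2 kept similar ratios to each other while their levels differed widely. Cavin3 was 0.353 to 0.581 times Cavin1 over all 12 libraries, and Ehd2 was 0.219 to 0.417 times Cavin1. Cavin2 was 0.145 to 0.170 times Cavin1 in WT replicates 2, 3 and 4 and 0.0253 to 0.0758 times in the other 9. Cav1 was 1.41 to 4.52 times Cavin1 in KO libraries, 0.301 to 0.376 times in WT replicates 2, 3 and 4 and 3.71 to 29.5 times in WT replicates 1, 5, 6 and 7. The value of 29.5 was that of WT replicate 6, in which Cavin1 was lowest and Cav1 was high.

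Stromal markers were set beside each member as the mean log2(TPM + 1) of the 28 fibroblast and smooth muscle genes. This score was 2.68, 3.48, 3.46, 3.03 and 3.79 in KO replicates 1 to 5, against 6.19, 5.87 and 6.91 in WT replicates 2, 3 and 4 and 3.41, 3.33, 2.12 and 3.38 in WT replicates 1, 5, 6 and 7. KO libraries overlapped WT replicates 1, 5, 6 and 7, with WT replicate 6 lowest of all. Over these 9 libraries Cavin3 followed the score with r = 0.97 and rho = 0.95 (exact permutation adjusted p = 0.000347 and 0.00247, n = 9). Cavin1 gave r = 0.97 and rho = 0.88 (exact permutation adjusted p = 0.000547 and 0.0108, n = 9), and Ehd2 gave r = 0.96 and rho = 0.85 (exact permutation adjusted p = 0.000530 and 0.0142, n = 9). Without WT replicate 6 and KO replicate 1, the libraries farthest from the median score, r was 0.94 for Cavin3, 0.81 for Cavin1 and 0.89 for Ehd2 (exact permutation p = 0.00754, 0.0317 and 0.0224, n = 7). On deviations from the genotype means r was 0.98, 0.97 and 0.98 for these genes (exact permutation adjusted p = 0.00243, 0.0275 and 0.00243, n = 9).

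Cavin2 gave r = 0.76 and rho = 0.70 with the score (exact permutation adjusted p = 0.0300 and 0.0757, n = 9). Without WT replicate 6 and KO replicate 1 its r was 0.38 (exact permutation p = 0.378, n = 7), so the relation rests on those libraries, and its levels there were under 0.5 TPM. Cav1 gave r = -0.33 and rho = -0.37 (exact permutation adjusted p = 0.471 and 0.336, n = 9), and r = -0.16 without the same libraries (exact permutation p = 0.765, n = 7). Cav2 gave r = 0.13 and rho = 0.48 (exact permutation adjusted p = 0.715 and 0.226, n = 9), and r = 0.06 without them (exact permutation p = 0.911, n = 7). On deviations from the genotype means, with all 9 libraries kept, r was 0.79 for Cavin2, -0.25 for Cav1 and -0.02 for Cav2 (exact permutation adjusted p = 0.0371, 0.920 and 0.966). With the score as a covariate in the 9-library fit, the log2 fold change of Cav1 was -1.10. All 7 relations share the same libraries, and 5 of them were added after values were seen.

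**Figure D4:**
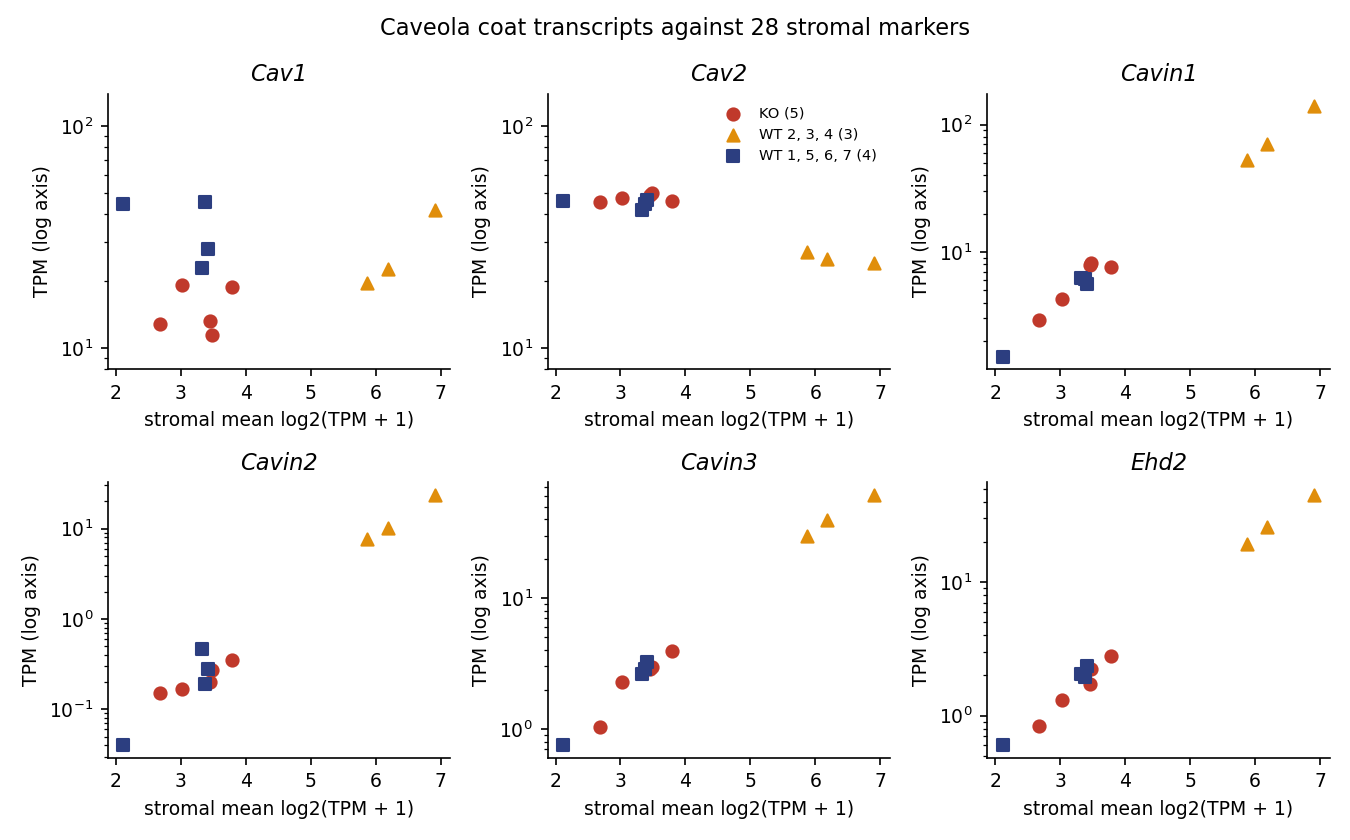
Level of each member in TPM on a log axis against the mean log2(TPM + 1) of 28 fibroblast and smooth muscle markers, a point per library. Cavin1, Cavin3 and Ehd2 climb with the score over all libraries, Cav1 does not order by it among the 9 libraries at scores of 2.12 to 3.79, and Cav2 is lower in WT replicates 2, 3 and 4.

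Some markers of other cell types were also higher in WT replicates 2, 3 and 4. The 10 endothelial markers summed to 5.6 to 6.08 TPM in KO libraries, 20.1 to 84.0 TPM in WT replicates 2, 3 and 4 and 5.88 to 7.50 TPM in the other WT libraries. Pecam1, an endothelial adhesion molecule that some leukocytes share, was highest in WT replicate 3, where it reached 15.3 TPM. Egfl7, a factor secreted by endothelium, stood at 1.44 to 2.08 TPM in KO libraries, 5.39 to 13.97 TPM in WT replicates 2, 3 and 4 and 0.78 to 2.38 TPM in the other WT libraries. Keratin 19 (Krt19), an epithelial and mesothelial keratin, stood at 0 to 0.27 TPM in KO libraries, 10.7 to 38.9 TPM in WT replicates 2, 3 and 4 and 0.04 to 0.22 TPM in the other WT libraries. The 8 listed epithelial and mesothelial markers summed to 10.9 to 39.1 TPM in WT replicates 2, 3 and 4, nearly all of it Krt19. The epithelial cadherin Cdh1 stayed at or below 0.51 TPM. Adipocyte markers were near 0 throughout, with Plin4 at no more than 0.53 TPM, Plin1 at no more than 0.15 TPM and Lep and Retn at 0 in every library. The marrow stromal chemokine Cxcl12 stood at 5.76 to 16.4 TPM in KO libraries, 40.8 to 66.9 TPM in WT replicates 2, 3 and 4 and 2.78 to 12.5 TPM in the other WT libraries. Adipor2, an adiponectin receptor on the marrow stromal list, went the other way, at 45.6 to 49.1 TPM in KO libraries, 30.3 to 31.1 TPM in WT replicates 2, 3 and 4 and 45.0 to 48.4 TPM in the other WT libraries. Platelet factor Pf4 was abundant in all libraries, at 1110 TPM or more, and Ppbp, another platelet chemokine, reached 3.75 TPM in KO libraries, 9.51 TPM in WT replicates 2, 3 and 4 and 2.78 TPM in the other WT libraries. The part of these cells in the members' levels was not tested.

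The lists were read in the same fits, each as its count of genes called. In the 12-library fit no gene of any list passed. In the 9-library fit 0 of 14 fibroblast, 0 of 8 smooth muscle, 0 of 4 endothelial, 0 of 4 marrow stromal, 0 of 4 megakaryocyte, 0 of 7 neutrophil and 0 of 1 lymphocyte genes passed, and no adipocyte or epithelial gene was tested. Of 12 macrophage genes 1 rose in KO and 2 fell, where 1.61% of all genes tested were called higher and 0.717% lower. Lyz2, the lysozyme of myeloid cells, stood at 4932 to 5853 TPM in KO libraries, 16587, 21547 and 5232 TPM in WT replicates 2, 3 and 4 and 14635 to 16912 TPM in WT replicates 1, 5, 6 and 7 (9-library log2 fold change -1.55; limma adjusted p = 5.7e-06). WT replicate 4 lay within the KO range, and with 12 libraries Lyz2 did not pass (limma adjusted p = 0.111). Cd14, the co-receptor for lipopolysaccharide, rose in KO by 0.51 in log2 (limma adjusted p = 0.0458), and C1qc, a chain of complement C1q, fell by 0.26 in log2 (limma adjusted p = 0.0432). The neutrophil gene S100a9 stood at 536 to 3507 TPM in KO libraries, 3.39 to 26.1 TPM in WT replicates 2, 3 and 4 and 632 to 818 TPM in the other WT libraries. Its partner S100a8 stood at 319.7 to 1910.3 TPM in KO libraries, 73.7 to 79.1 TPM in WT replicates 2, 3 and 4 and 364 to 457 TPM in the other WT libraries. Of the 7 tested neutrophil genes, 6 were lower in WT replicates 2, 3 and 4 than in any other library and 1 was higher. Among all genes tested, 25.5% were lower and 23.6% higher in the same way. The lymphocyte genes Cd79b and Nkg7 stayed at or below 6.71 and 2.49 TPM in all libraries.

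Other genes of caveolae and of the membrane domains around them were read as lists. Of the 9 tested accessory genes (EHD proteins, pacsins and filamins among them) none passed in either fit, with a median log2 fold change of 0.12 with 12 libraries and 0.05 with 9. Flna, which ties caveolae to actin, averaged 538 ± 18.4 TPM in KO libraries (SD, n = 5) and 521 ± 29.6 TPM in WT replicates 1, 5, 6 and 7 (SD, n = 4). Of 8 tested raft scaffold genes 2 rose in KO with 9 libraries and none fell, where 1.61% of all genes tested were called higher and 0.717% lower. S100a10, the light chain of the annexin A2 tetramer, averaged 626 ± 28.8 TPM in KO libraries and 474 ± 42.3 TPM in WT replicates 1, 5, 6 and 7 (log2 fold change 0.40 ± 0.0611, limma adjusted p = 0.0148). Its call held in all 16 alternatives of the 9-library fit. Anxa2, the annexin it binds, averaged 852 ± 30.9 TPM in KO libraries and 723 ± 36.2 TPM in WT replicates 1, 5, 6 and 7 (log2 fold change 0.24 ± 0.0431, limma adjusted p = 0.0263), and its call held in 8 of 16. It was lost without KO replicate 2, 3 or 4, without WT replicate 1, 5 or 7, with median-ratio scaling and with the submission block, with adjusted p up to 0.0916 from limma. With 12 libraries neither passed (limma adjusted p = 0.355 and 0.811), and both genes were higher in WT replicates 2, 3 and 4 than in the other WT libraries.

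Caveola cargo and partner genes gave no call among 14 tested in either fit. Cd36, a fatty acid and lipoprotein receptor found in caveolae and rafts, averaged 1319 ± 173 TPM in KO libraries (SD, n = 5) and 1008 ± 46.8 TPM in WT replicates 1, 5, 6 and 7 (SD, n = 4; limma adjusted p = 0.0583). Tgfbr1, a receptor that caveolae take up, stood at 77.8 to 84.6 TPM in KO libraries, 20.01 to 21.9 TPM in WT replicates 2, 3 and 4 and 72.0 to 91.7 TPM in the other WT libraries. Of the 8 clathrin coat genes, the other main coat of endocytosis, none passed, with Clta at 650 ± 15.7 TPM in KO libraries (SD, n = 5) and 672 ± 13.1 TPM in WT replicates 1, 5, 6 and 7 (SD, n = 4). Ap2m1, a chain of the clathrin adaptor, averaged 531 ± 30.0 TPM in KO libraries and 529 ± 15.5 TPM in WT replicates 1, 5, 6 and 7. Of the other caveolin and cavin genes, Cav3 stayed at or below 0.12 TPM in all libraries. Cavin4 stood at 0.85 to 1.55 TPM in KO libraries, 0.43 to 0.90 TPM in WT replicates 2, 3 and 4 and 1.38 to 1.74 TPM in WT replicates 1, 5, 6 and 7. With 9 libraries its difference did not pass (log2 fold change -0.26 ± 0.111, limma adjusted p = 0.243). With 12 libraries the log2 fold change was -0.01 ± 0.169 and did not pass either (limma adjusted p = 0.960).

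The neighbourhood of Cav1 and Cav2 was followed over 1000000 bases on either side of the Cav1 start. The annotation lists 39 genes there, of which 12 were in the table and 7 were tested. With 12 libraries none passed, and with 9 libraries Cav1 alone passed. That count was 4 with sample quality weights, 3 with the stromal covariate, 2 without WT replicate 6 (Cav1 not among them), and 0 where the call of Cav1 was lost by another setting. The nearest tested neighbours with 9 libraries were Tes, a focal adhesion LIM protein (0.14 ± 0.035 log2, limma adjusted p = 0.0754), and Met, the receptor of hepatocyte growth factor (0.42 ± 0.114 log2, limma adjusted p = 0.0863). Capza2, an actin capping subunit, had 0.27 ± 0.0636 log2 (limma adjusted p = 0.0609). Tfec and St7 had log2 fold changes of 0.05 each (limma adjusted p = 0.848 and 0.829). Gm4876, Wnt2, Asz1, Cftr and Gm15595 did not enter the fits and stayed at or below 0.93 TPM. Within WT, Met was higher in replicates 2, 3 and 4 (9.14 to 10.4 TPM) than in replicates 1, 5, 6 and 7 (2.15 to 3.30 TPM). St7 was also higher in replicates 2, 3 and 4 (13.4 to 15.1 TPM, with 4.96 to 6.26 TPM in the others). Capza2 was lower in them (211 to 287 TPM, with 289 to 348 TPM in the others), as was Cav2. Among all genes tested, 29.9% stood above and 28.3% below the other WT libraries in the same way. Tfec and Tes, on the Cav2 side of the pair, overlapped between these WT sets.

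**Figure D5:**
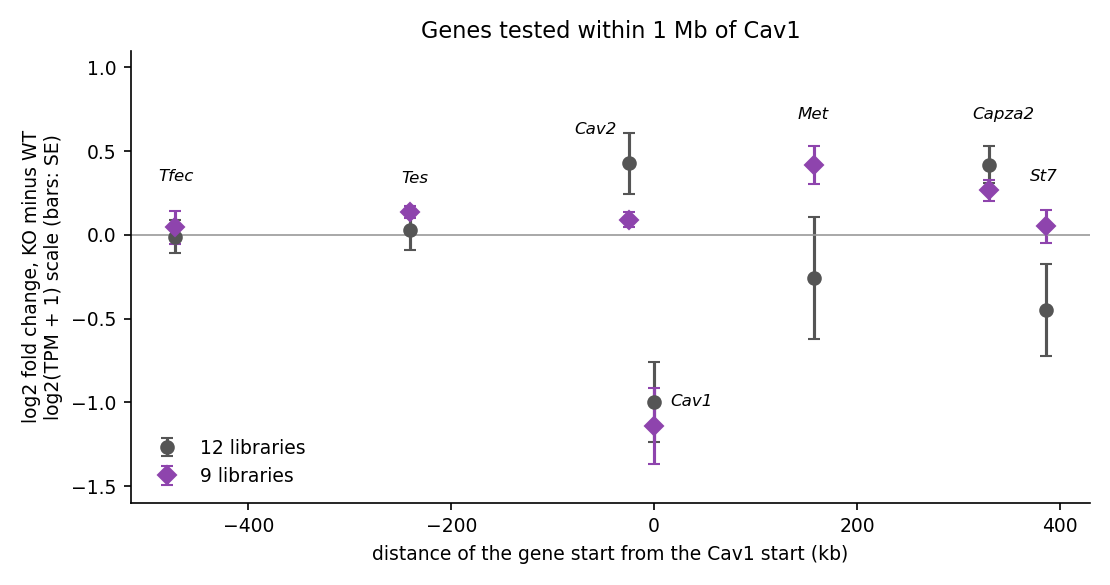
Log2 fold change of KO minus WT with SE bars for the 7 tested genes within 1000000 bases of the Cav1 start, by distance of the gene start in kb, from 12 and from 9 libraries. Cav1 is the only gene near -1 in both fits, while Cav2, 25 kb away, lies above 0.

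Among 9062 genes averaging 5 TPM or more, those most like Cav1 over the 9 libraries were Sesn2, Pisd, Tgif1, Tuba1c, Mllt11, Drap1, Bin1, Smarcd1, Card19 and Lmo2, with Pearson r of 0.88 to 0.91. The coat genes and predicted genes were left out of this search. The deleted gene Smarcd1 was itself among them, at r = 0.89, and the points share the split of genotypes. Sesn2, Mllt11, Bin1 and Smarcd1 were also called lower in KO in the 9-library fit, where 0.717% of all genes tested were. The other genes named did not pass. Genes picked for following Cav1 in these libraries share its genotype split, so nothing is read from these calls. Of the coat genes, read separately, Cav2 had r = -0.48 with Cav1, Cavin1 r = -0.41, Cavin3 r = -0.19 and Ehd2 r = -0.16. These correlations are a description over 9 libraries.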

How the data were processed

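RNA was extracted with a column kit and NEBNext Ultra libraries were read from both ends over 51 bases, per the labels' protocols. Salmon 1.2.0, bcl2fastq and mm10 are named in the submitters' processing notes. Nothing in the sources used here gives strand handling or the summing to genes. The table deposited by the authors holds TPM for 23438 Ensembl IDs, of which 23423 matched a GENCODE M21 symbol. TPM keeps no depth, so no counting interval is given, and since it has a fixed total, a rise of abundant transcripts lowers all others.

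Columns were tied to libraries through the submission names in the labels. limma-trend (limma 3.58.1, R 4.3.3) was fitted to log2(TPM + 1) for the 11152 genes that reached 1 TPM in 5 or more libraries, with Benjamini-Hochberg adjustment and a threshold of 0.05. Fold changes on this scale understate those of low genes. It was tested on simulated data. Correlations used exact two-sided permutation tests (scipy 1.17.1, Python 3.11.15), with adjustment over 7 relations. The members, gene lists and the 9-library set were chosen with earlier results of these data known. Named genes are all members, list genes past the threshold or else the 2 of highest mean, genome neighbours, and the 10 genes most like Cav1. Other list genes, and the motifs, were chosen after values were seen. Alternatives were another scaling, pseudocount and filter, quality weights, a stromal covariate, replicate and submission blocks (submission numbers 1 to 5 against the rest) and leaving out libraries.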

Additional observations from a re-analysis of the deposited data

Results flagged for a closer look

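Cavin2 in WT replicate 4 lay far from the other WT libraries, at 23.8 TPM against 0.04 to 10.2 TPM in the other 6. Its gap to the nearest library was 0.571 of the range of the 7 libraries, just over the critical value of 0.568. In all 12 groups of values were examined, and chance alone flags about 1 in 20 groups with a single spread of values. WT replicates 2 and 3, at 10.2 and 7.58 TPM, are also far above the remaining WT libraries, which stayed at or below 0.47 TPM. The WT values therefore do not form a single spread, and the flag is only a description.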

How the results depend on the processing

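With 12 libraries, 14 genes were called (12 higher and 2 lower in KO). The count was 4 with median-ratio scaling, 3 with a submission block, 130 with a stromal covariate, 759 with sample quality weights and 260 without WT replicates 2, 3 and 4. Leaving out each library gave 2 to 36, the most without WT replicate 6. With the replicate block over 10 libraries, limma called 0 genes (3706 at an unadjusted p under 0.05), against 13 without the block. Same-numbered libraries deviated together with correlations of -0.23 to 0.27, and 3 of 10 correlated best with their own number. No pairing by number was seen. The WT deviations include the split of WT replicates 2, 3 and 4, so a pairing is not excluded. With 9 libraries, 260 genes were called (180 higher, 80 lower), 132 with a submission block, 828 with a stromal covariate and 758 with quality weights. Median-ratio scaling gave 79 higher and 146 lower. Leaving out each library gave 51 without WT replicate 1 to 462 without WT replicate 6. The cause was not tested. A paired fit of 9 libraries was not made, since only replicate numbers 1 and 5 occur in both genotypes there. Cav2 was positive and never called in any of the 22 and 16 alternatives, at 0.04 to 0.57, and its 12-library value of 0.43 was 0.09 without WT replicates 2, 3 and 4. Cavin1, Cavin3 and Ehd2 were never called, and took either sign in both sets. Cav1 and Cav2 had r of -0.65 to -0.32 with the other pseudocount and with libraries left out. On deviations from the genotype means their r was 0.13. Cav1 and the stromal score had r of -0.54 to 0.19, positive without WT replicate 6. The counts of genes higher and lower in WT replicates 2, 3 and 4 than in the other WT stayed at 2689 to 3341 and 2849 to 3305.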

Other observations

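Caveola accessory genes, and Egfr from the cargo list, took different directions in WT replicates 2, 3 and 4. Pacsin3, a membrane-bending protein known from muscle caveolae, stood at 1.19 to 3.22 TPM in KO libraries, 11.4 to 18.6 TPM in WT replicates 2, 3 and 4 and 0.72 to 3.10 TPM in the other WT libraries. Its widely expressed relative Pacsin2 stood at 139 to 162 TPM in KO libraries, 78.4 to 90.4 TPM in WT replicates 2, 3 and 4 and 146 to 159 TPM in the other WT libraries. Ehd3 was higher in WT replicates 2, 3 and 4, at 3.17 to 4.54 TPM, than in KO libraries (0.36 to 0.63 TPM) and the other WT libraries (0.18 to 0.49 TPM). Ehd4 was lower there, at 55.6 to 72.6 TPM, against 111 to 143 TPM in KO libraries and 108 to 139 TPM in the other WT libraries. Egfr, a receptor found in caveolae, stood at 0.74 to 2.18 TPM in KO libraries, 7.90 to 18.3 TPM in WT replicates 2, 3 and 4 and 0.89 to 1.75 TPM in the other WT libraries. These genes were chosen after their values were seen, and no test was made. Of 9 tested accessory genes, 2 stood above and 4 below all 9 other libraries in WT replicates 2, 3 and 4. Of 14 tested cargo and partner genes, 5 stood above and 2 below. Among all genes tested, 23.6% stood above and 25.5% below, so nothing is read from these directions.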
